A study of Homo sapiens with 12 samples.

Results

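FoxK1 binding was examined at 10 genes that carry glucose into the cell, break it down or set the fate of its end product: SLC2A1, HK2, PFKP, PFKL, ALDOA, GAPDH, ENO1, PKM, LDHA and PDK1. The members are all peaks whose summit lay within 5 kb of a fixed transcription start of these genes on genome build hg19, which gave 98 of the 223205 peaks deposited for the series. The assay was FoxK1 chromatin immunoprecipitation followed by sequencing, done in HepG2, a human hepatocellular carcinoma line used as a model of hepatocytes. All cells stood without serum for 16 h and then received 100 nM insulin for 20 min (insulin, 3 libraries) or nothing (untreated, 3 libraries), with 1 peak list per library. The labels do not say whether the replicates came from separate cultures. The p-values therefore cover the spread of these 6 libraries alone, which may be technical, and the input libraries were not analysed here. Read totals do not come with peak lists, so depth is unknown. The comparison asks whether a short insulin stimulus altered where FoxK1 sat.

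FoxK1 is a forkhead transcription factor that enters the nucleus after insulin signalling and has been described, with its relative FoxK2, as a promoter of aerobic glycolysis. In glycolysis, glucose is taken up, phosphorylated, split and oxidised to pyruvate, which is then reduced to lactate or passed to the mitochondria. Hepatocytes mainly use other isoforms at several of these steps. HK2, PKM and SLC2A1 are forms typical of proliferating and tumour cells.

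Peaks stood near 9 of the 10 starts, and 8 genes had a peak in each of the 6 libraries. PFKP, the platelet-type phosphofructokinase, had no peak within 5 kb in any list, and PFKL, the liver-type enzyme, had peaks in 4 libraries. Merging peaks of all lists that shared at least 1 bp placed the 98 peaks in 23 sites. Of these sites, 10 (43.5%) were called in all 6 libraries, against 23.3% of the 68127 merged regions of the whole series. A further 2 sites were called in 5 libraries, 2 in 4, 4 in 2 and 5 in a single library. The 10 sites in all libraries comprised a pair each at GAPDH and LDHA and a single site each at SLC2A1, HK2, ALDOA, ENO1, PKM and PDK1. At 6 of these 10 the median summit lay within 500 bp of the start. The counts of genes with a peak and of summits near a start were not made for other genes, for want of an annotation on hg19. Whether they are particular to the glycolysis genes was therefore not tested.

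**Figure D1:**
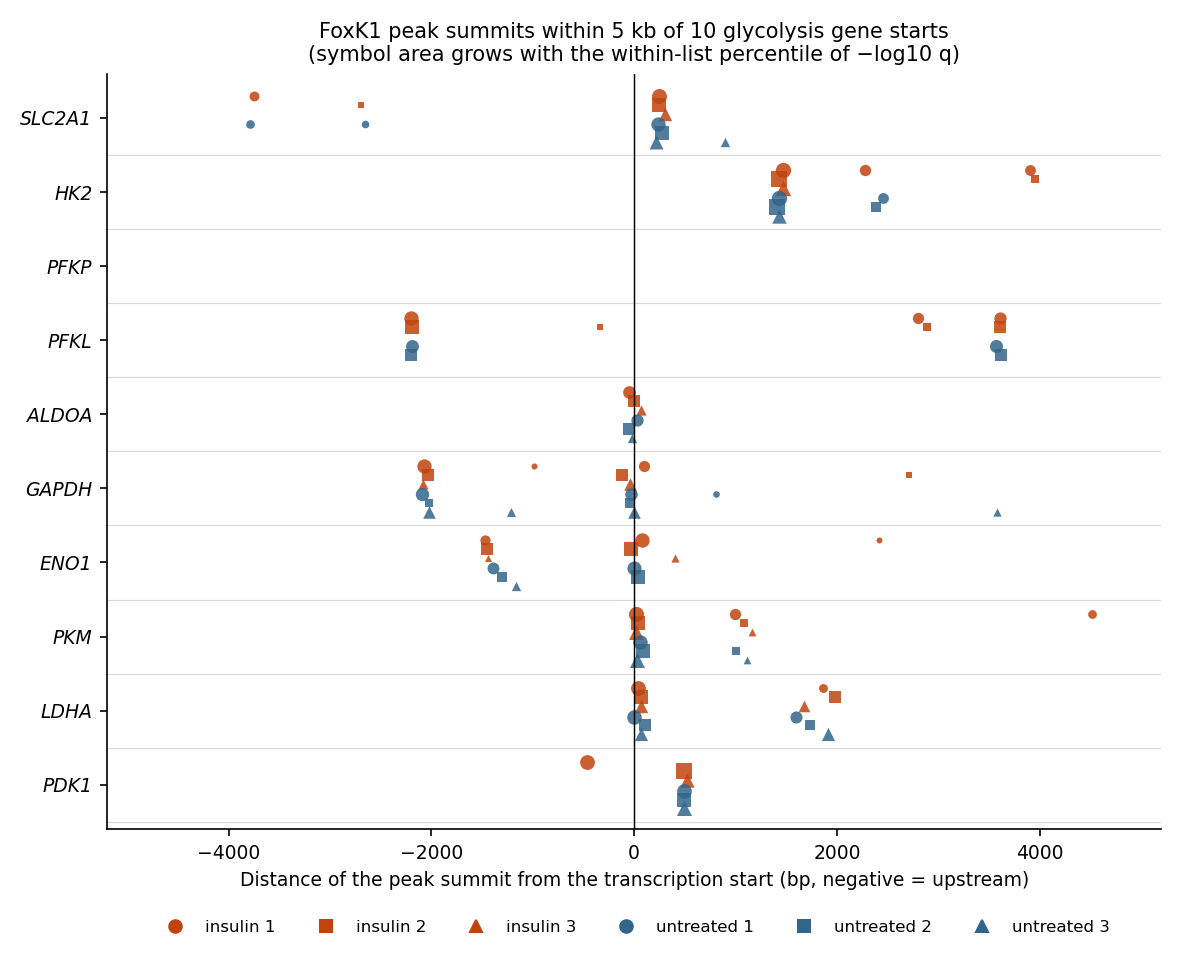
Distance of every peak summit from the start of its gene, in bp along the direction of transcription, for the 10 genes and 6 libraries (colour for treatment, shape for replicate, symbol area growing with the within-list percentile). Summits stack at the start used for ALDOA, GAPDH, ENO1, PKM and LDHA, stand at a median of 1431 bp downstream of the start used for HK2, and leave PFKP empty.

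The promoter sequences of 5 genes are shown because they span what the map holds: PKM with the strongest site right at the start, ENO1, GAPDH and LDHA with weaker or less complete ones, and PFKL with a single weak peak there. Each is the 250 bases before the start in RefSeq, on build GRCh38.p14, printed 5′ to 3′ along the gene. Capitals mark ACGTG or its reverse complement CACGT, the core letters bound by hypoxia-inducible factors, and GGGCGG or CCGCCC, the GC box bound by Sp1. These windows were matched by gene symbol, and how far each RefSeq start lies from the start used on hg19 was not tested.
PKM, chr15:72231191-72231440, minus strand: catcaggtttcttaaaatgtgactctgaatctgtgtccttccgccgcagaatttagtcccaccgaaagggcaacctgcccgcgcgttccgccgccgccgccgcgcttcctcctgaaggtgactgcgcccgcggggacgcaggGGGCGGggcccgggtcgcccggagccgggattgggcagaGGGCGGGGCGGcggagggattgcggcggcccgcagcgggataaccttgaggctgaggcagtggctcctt
ENO1, chr1:8878687-8878936, minus strand: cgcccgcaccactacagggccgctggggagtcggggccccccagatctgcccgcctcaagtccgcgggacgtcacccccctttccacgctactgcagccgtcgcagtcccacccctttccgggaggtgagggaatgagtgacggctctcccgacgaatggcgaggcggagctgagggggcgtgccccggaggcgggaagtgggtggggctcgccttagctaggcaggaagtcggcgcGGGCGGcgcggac
GAPDH, chr12:6535014-6535263, plus strand: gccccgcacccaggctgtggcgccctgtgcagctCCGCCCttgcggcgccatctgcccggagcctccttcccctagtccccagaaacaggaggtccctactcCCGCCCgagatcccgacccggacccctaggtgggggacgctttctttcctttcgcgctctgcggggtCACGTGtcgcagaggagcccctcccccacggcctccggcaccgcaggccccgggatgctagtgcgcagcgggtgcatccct
LDHA, chr11:18394313-18394562, plus strand: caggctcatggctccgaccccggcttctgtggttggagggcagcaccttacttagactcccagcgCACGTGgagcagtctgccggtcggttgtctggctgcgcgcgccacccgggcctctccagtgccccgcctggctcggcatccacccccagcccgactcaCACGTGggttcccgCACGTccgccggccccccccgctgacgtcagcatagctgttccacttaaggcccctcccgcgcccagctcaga
PFKL, chr21:44299803-44300052, plus strand: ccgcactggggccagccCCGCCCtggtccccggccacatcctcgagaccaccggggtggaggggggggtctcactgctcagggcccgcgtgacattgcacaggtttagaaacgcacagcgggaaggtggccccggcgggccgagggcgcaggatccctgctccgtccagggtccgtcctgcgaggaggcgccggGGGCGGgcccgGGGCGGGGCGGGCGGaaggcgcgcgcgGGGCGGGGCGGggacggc

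These upstream stretches are rich in G and C, from 68.4% in PKM to 78% in PFKL. Over windows of 250 bases before to 50 after a start, the 10 genes had 18 entries with a median GC content of 70.3%, against 58.7% over all 35116 windows. The forkhead letters GTAAACA, or their reverse complement TGTTTAC, were in 0 of the 18 member windows and in 3.42% of all windows. The shorter TAAACA or TGTTTA was in 0 of 18 and in 12.3% of all windows. The GC box was in 12 of 18 member windows, at least 1 for each of the 10 genes, and in 45% of all windows. Where a gene has several entries, a match in any of them counts, and its distance from the start used was not tested. At ALDOA the GC boxes were only in the window of the RefSeq start furthest downstream. ACGTG or CACGT was in 9 of 18, from 6 genes, and in 21.4% of all windows, while the E-box CACGTG, which contains both, was in 4 of 18 and in 7.26% of all. CCAAT or ATTGG was in 5 of 18 and in 34.6% of all windows, and the ETS letters CCGGAA or TTCCGG were in 6 of 18 and in 17.2% of all. TGACG or CGTCA, part of cAMP-responsive elements, was in 5 of 18 and in 24.6% of all windows. TGCGCA, from the NRF1 motif, was in 3 of 18 and in 8.24% of all. In the stretches printed, GC boxes numbered 7 at PFKL, whose start had a peak in a single library, 3 at PKM and 0 at LDHA. A match of letters is a description of the window and not a site. The windows end 50 bases after RefSeq starts on GRCh38.p14, while summits were measured from the starts used on hg19. Which summits fall inside a window was therefore not tested. PFKP, which had no peak, gave 4 of the 18 windows. No sequence was taken by summit position, so whether the summits hold forkhead letters was not tested.

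Strength is given below in 2 ways. The percentile of a peak is its rank by −log10 q among all peaks of its own list. Fragments at a summit, with their expected background, were solved from the fold and −log10 p that the authors deposited, and each of the 98 peaks gave exactly 1 whole number that fitted. Fragment numbers move with the depth and background of a library and are not a measure of binding between libraries. Both replicate 3 lists were the shortest of their treatment, with 27503 peaks for insulin and 26082 for untreated, against 31668 to 48208 in the other 4 lists.

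SLC2A1 encodes GLUT1, the transporter that brings glucose across the plasma membrane. Its main site, chromosome 1, 43423100 to 43425125 on hg19, had its summit between 215 and 307 bp downstream of the start used. Summit fragments numbered 78, 97 and 26 in insulin replicates 1, 2 and 3, over backgrounds of 5.74, 9.53 and 3.23, against 94, 52 and 31 in untreated replicates 1, 2 and 3, over 16.1, 10.5 and 4.56. In their lists these peaks stood at percentiles of 87.6, 83.9 and 67.8 after insulin and 79.0, 68.9 and 74.3 in untreated cells. The ranges of the treatments overlapped. In untreated replicate 3 the same site held another, weaker peak 893 bp downstream. Upstream of SLC2A1, weak sites at about 2.7 kb and 3.8 kb were called in 2 libraries each, with folds between 2.83 and 4.47.

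HK2 encodes hexokinase 2, which phosphorylates glucose on entry. Its main site had the highest mean percentile of the 23 sites, although PDK1 and PKM ranked above it in untreated replicate 3. It lay at chromosome 2, 75060786 to 75063030. Summit fragments numbered 99, 123 and 61 in insulin replicates 1, 2 and 3, over backgrounds of 6.92, 9.87 and 5.14, against 155, 83 and 39 in untreated replicates 1, 2 and 3, over 16.5, 11.6 and 5.94. The percentiles were 91.4, 89.7 and 93.2 after insulin and 93.4, 88.6 and 79.7 in untreated cells, the lowest being untreated replicate 3. All 6 summits fell between 1404 and 1471 bp downstream of the start used, a spread of 67 bp. RefSeq lists 2 starts for HK2, 1043 bp apart on GRCh38.p14. In insulin replicate 1 and untreated replicates 1 and 2 the site held a second, weaker peak, 814, 1032 and 983 bp further downstream. No coordinate was converted between the builds, so whether these summits sit at the RefSeq starts was not tested. A site between 3900 and 3950 bp was called in insulin replicates 1 and 2 alone, with folds of 4.52 and 2.79.

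Phosphofructokinase commits sugar phosphate to glycolysis, and its genes were the exception among the 10. PFKP had 0 peaks in every library, also within 10 kb of the start used. RefSeq lists 4 starts for PFKP, and only the start used was examined. At PFKL the start itself was nearly bare, with a single peak, at -336 bp, in insulin replicate 2, of fold 3.20 and percentile 3.96. The main site of PFKL lay upstream, at chromosome 21, 45717530 to 45718018, with summits between -2198 and -2194 bp from the start in the 4 libraries that had it. There its fragments numbered 41 and 48 in insulin replicates 1 and 2, over backgrounds of 2.02 and 3.57, against 36 and 28 in untreated replicates 1 and 2, over 4.08 and 4.79. Its percentiles were 79.4 and 71.9 after insulin and 61.0 and 51.6 in untreated cells, and it was called in neither replicate 3 library. A second site, 3566 to 3615 bp downstream, was present in the same 4 libraries at percentiles of 53.2 and 54.2 after insulin and 62.6 and 60.8 in untreated cells. Neither PFKL site was called in all 6 libraries, so the shared-region ranking used below holds no value for them. Another site, 2801 and 2886 bp downstream, was called in insulin replicates 1 and 2 alone, with folds of 6.56 and 3.93.

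ALDOA encodes aldolase A, which splits fructose bisphosphate. Its only site, chromosome 16, 30064087 to 30064955, straddled the start used, with summits from 53 bp upstream to 72 bp downstream. Summit fragments numbered 44, 73 and 24 in insulin replicates 1, 2 and 3, over 8.06, 16.0 and 6.52 expected, against 77, 47 and 20 in untreated replicates 1, 2 and 3, over 23.4, 15.1 and 6.16. The percentiles were 58.3, 60.8 and 32.9 after insulin and 53.6, 41.9 and 24.1 in untreated cells. ALDOA was thus bound near the middle of the lists of replicates 1 and 2 and in the lower part of those of replicate 3. RefSeq lists 3 starts for this gene and only the start given above was examined.

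GAPDH encodes glyceraldehyde-3-phosphate dehydrogenase, the step that makes NADH. It had the most peaks of the 10 genes, 17 in 4 sites, and 2 of these sites were present in every library. At the start, chromosome 12, 6642198 to 6644678, fragments numbered 31, 45 and 20 in insulin replicates 1, 2 and 3 and 58, 34 and 21 in untreated replicates 1, 2 and 3. The percentiles there were 42.1, 49.1 and 56.5 after insulin and 56.1, 34.0 and 56.7 in untreated cells. The upstream site, 6641209 to 6642077, with summits between -2089 and -2023 bp, ranged more widely, with percentiles of 78.3, 59.7 and 30.9 after insulin and 66.7, 19.2 and 56.2 in untreated cells. The upstream site ranked above the start in both replicate 1 libraries and in insulin replicate 2, and below it in the other three. Sites 2711 and 3576 bp downstream were each called in a single library, insulin replicate 2 and untreated replicate 3.

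ENO1 encodes enolase 1, which forms phosphoenolpyruvate. Its start, chromosome 1, 8937966 to 8939668, was called in 5 libraries. Summit fragments numbered 59, 84 and 17 in insulin replicates 1, 2 and 3, over 5.69, 13.1 and 4.97 expected, against 89 and 60 in untreated replicates 1 and 2, over 15.9 and 10.1. The percentiles were 79.4, 73.3 and 14.7 after insulin and 76.6 and 78.3 in untreated replicates 1 and 2, and untreated replicate 3 had no peak there. In insulin replicate 3 the summit was also displaced, to 406 bp downstream, while the other 4 lay between 31 bp upstream and 74 bp downstream. Both replicate 3 libraries thus set ENO1 apart from the rest. The site found in all 6 libraries lay upstream, at 8940111 to 8941213, with summits between -1475 and -1164 bp, and was weak. It had percentiles of 32.5, 54.3 and 6.68 after insulin and 49.6, 29.7 and 24.2 in untreated cells. Another site, 2412 bp downstream, was called in insulin replicate 1 alone, with a fold of 2.58.

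PKM encodes the pyruvate kinase that makes pyruvate in most tissues other than adult liver. Its start carried a strong and well-placed site, chromosome 15, 72523269 to 72524854, with summits between 19 and 84 bp downstream. Summit fragments numbered 86, 101 and 41 in insulin replicates 1, 2 and 3, over 5.60, 8.68 and 3.54 expected, against 95, 73 and 43 in untreated replicates 1, 2 and 3, over 15.5, 11.3 and 4.69. The percentiles of 90.1, 86.1 and 86.8 after insulin and 80.2, 84.5 and 87.9 in untreated cells overlapped and varied little (85.9 ± 3.37, SD, n = 6). A weak neighbour, 991 to 1160 bp downstream, was called in 5 libraries, all but untreated replicate 1, at percentiles between 7.76 and 43.1. Another site, 4519 bp downstream, was called in insulin replicate 1 alone, with a fold of 3.76.

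LDHA encodes the lactate dehydrogenase subunit that favours the reduction of pyruvate to lactate. Its start, chromosome 11, 18415434 to 18416498, was called everywhere, with summits 2 to 105 bp downstream. Summit fragments numbered 72, 82 and 27 in insulin replicates 1, 2 and 3, over 5.83, 12.4 and 3.68 expected, against 99, 49 and 26 in untreated replicates 1, 2 and 3, over 15.5, 12.3 and 4.35. The percentiles were 85.3, 73.3 and 66.9 after insulin and 81.9, 57.9 and 64.3 in untreated cells, again overlapping. A further site at 18417343 to 18418178 was called in all 6 libraries and ranked lower in 5 of them, with percentiles of 20.6, 47.7 and 45.4 after insulin and 51.5, 26.5 and 64.4 in untreated cells. The summits of the 2 sites were 1816, 1918 and 1607 bp apart in insulin replicates 1, 2 and 3 and 1599, 1632 and 1838 bp apart in untreated replicates 1, 2 and 3. RefSeq lists 2 starts for LDHA, 1788 bp apart on GRCh38.p14.

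PDK1 encodes pyruvate dehydrogenase kinase 1, which inhibits the entry of pyruvate into the mitochondrial citric acid cycle. It had a single site, chromosome 2, 173420036 to 173421708, in every library. Summit fragments numbered 75, 112 and 38 in insulin replicates 1, 2 and 3, over 6.35, 7.67 and 4.69 expected, against 96, 66 and 53 in untreated replicates 1, 2 and 3, over 12.5, 10.3 and 7.59. The percentiles were 85.5, 89.6 and 79.8 after insulin and 84.2, 82.1 and 88.0 in untreated cells. In 5 libraries the summit lay 487 to 517 bp downstream of the start, and in insulin replicate 1 it lay at -467 bp, within the same wide site of 1673 bp. RefSeq lists 2 starts for PDK1, 717 bp apart on GRCh38.p14, and only the start used was examined.

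**Figure D2:**
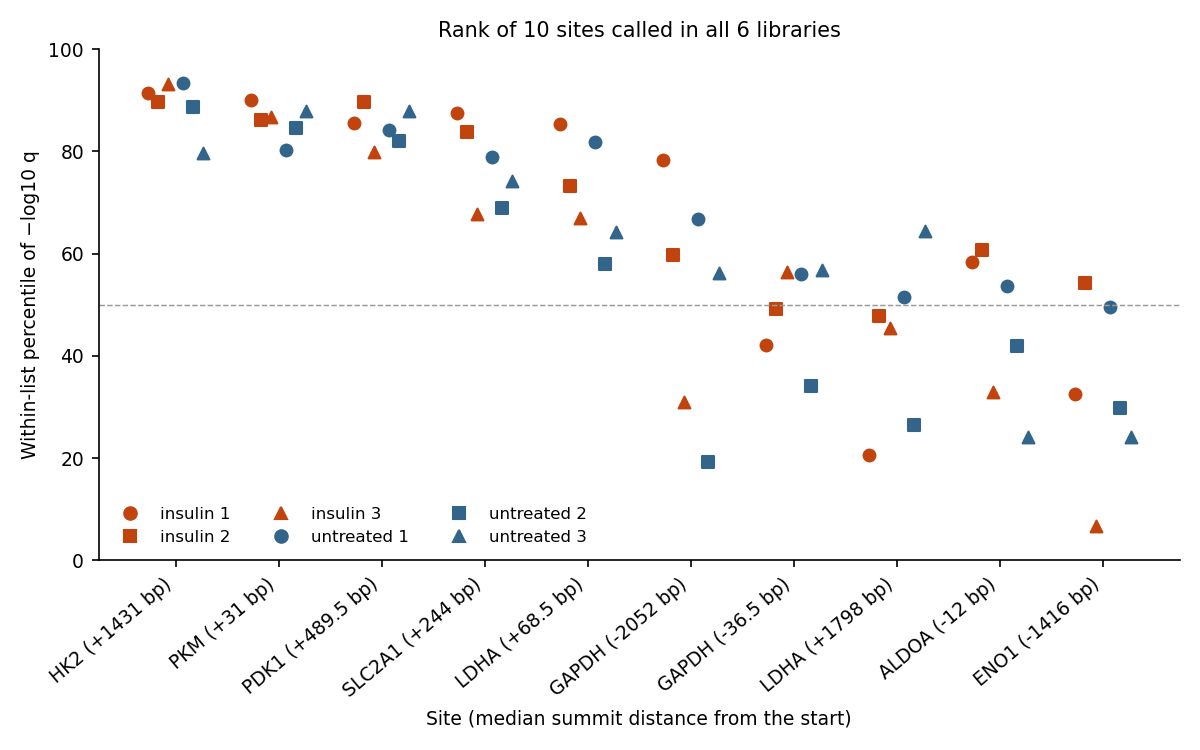
Within-list percentile of −log10 q (vertical axis, 0 to 100) of the 10 sites called in all 6 libraries, insulin libraries left of untreated ones at each site, with a dashed line at 50. HK2, PKM, PDK1 and SLC2A1 stayed at 67.8 or above in every library, while the other 6 sites each had at least 1 library below that, and the upstream GAPDH site ran from 19.2 to 78.3.

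**Figure D3:**
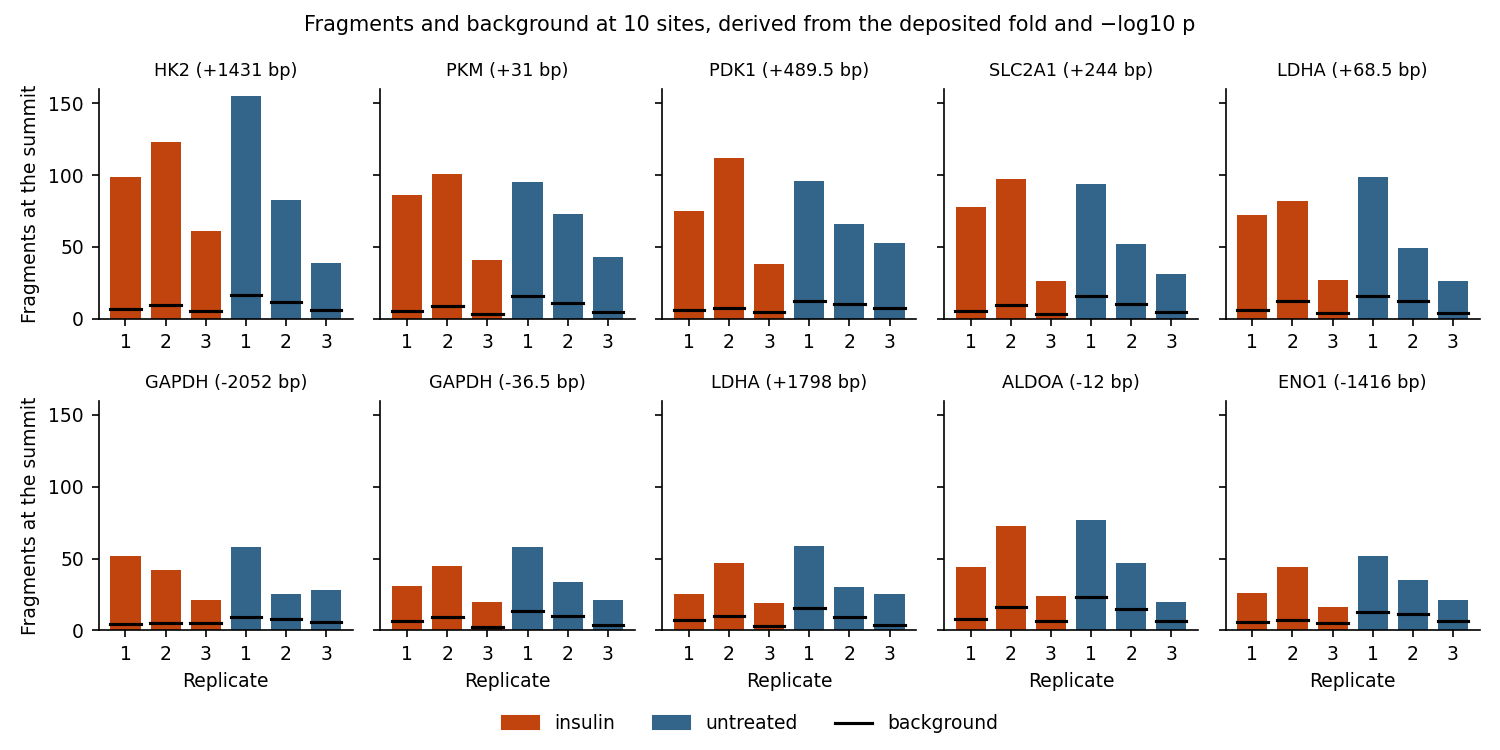
Fragments at the summit (bars) and the background expected there (black lines) at the same 10 sites, by replicate and treatment. Fragment numbers were lowest in a replicate 3 library within each treatment at 9 of the 10 sites, and at the upstream GAPDH site untreated replicate 2 was lowest, with 25 against 28 in untreated replicate 3.

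To set the libraries side by side, each of the 15887 regions called in all 6 libraries was ranked within each list among these same regions. On this scale the mean percentile over 6 libraries was 76.9 ± 7.49 at HK2, 68.7 ± 10.9 at PKM, 67.0 ± 8.15 at PDK1 and 53.6 ± 7.53 at SLC2A1 (SD, n = 6). It was 45.2 ± 10.2 at the LDHA start, 22.8 ± 14.9 and 18.5 ± 12.5 at the upstream and start sites of GAPDH, 16.0 ± 15.6 at the downstream LDHA site, 14.0 ± 4.42 at ALDOA and 7.28 ± 4.74 at the upstream ENO1 site. So 4 of the 10 sites stood above the middle of the shared regions, where 50 is the middle by construction. Neighbours in this order differed by less than the larger of their SDs, except PDK1 and SLC2A1, the LDHA start and the upstream GAPDH site, and ALDOA and ENO1, which differed by more. Median widths were 1344 bp at these 10 sites and 1092 bp over all shared regions.

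No difference in rank between insulin and untreated libraries was detected at any of the 10 sites. Ranks within a list cannot show a change common to all regions, so a general gain or loss of binding after insulin was not tested. The ranks were turned into normal scores, in units of about 1 SD of all shared regions, and insulin was compared with untreated by limma over all 15887 regions with Benjamini-Hochberg adjustment. Among the 10 sites 0 passed an adjusted p of 0.05, against 0.00% of all regions, and 0 had an unadjusted p under 0.05, against 4.09% (649) of all regions, 1.81% higher and 2.27% lower after insulin. With the replicate number as a block 0 of the 10 sites had an unadjusted p under 0.05, against 6.48% of all regions, 3.0% higher and 3.48% lower. The insulin-minus-untreated difference was 0.14 ± 0.24 (SE) at SLC2A1, with a 95% interval from -0.41 to 0.68. It was 0.10 ± 0.27 at HK2 (-0.51 to 0.71), 0.07 ± 0.28 at PKM (-0.57 to 0.72) and -0.10 ± 0.26 at PDK1 (-0.68 to 0.48). The furthest from 0 were the downstream LDHA site, at -0.60 ± 0.44 (-1.61 to 0.41), and the upstream ENO1 site, at -0.48 ± 0.33 (-1.24 to 0.27). The ENO1 value was -0.81 without insulin replicate 2 (limma, unadjusted p = 0.0317, adjusted p = 0.960) and -0.15 without insulin replicate 3. The adjusted p from limma was 0.999 at each of the 10 sites. The intervals leave room for shifts of more than 0.4 in at least 1 direction at every site, so equal binding was not shown. The median difference over the 10 sites was 0.08, against 0.01 over all shared regions. The ranks of the 3 insulin libraries lay all above, or all below, those of the 3 untreated libraries at 0 of the 10 sites, against 4.66% and 4.31% of all shared regions.

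**Figure D4:**
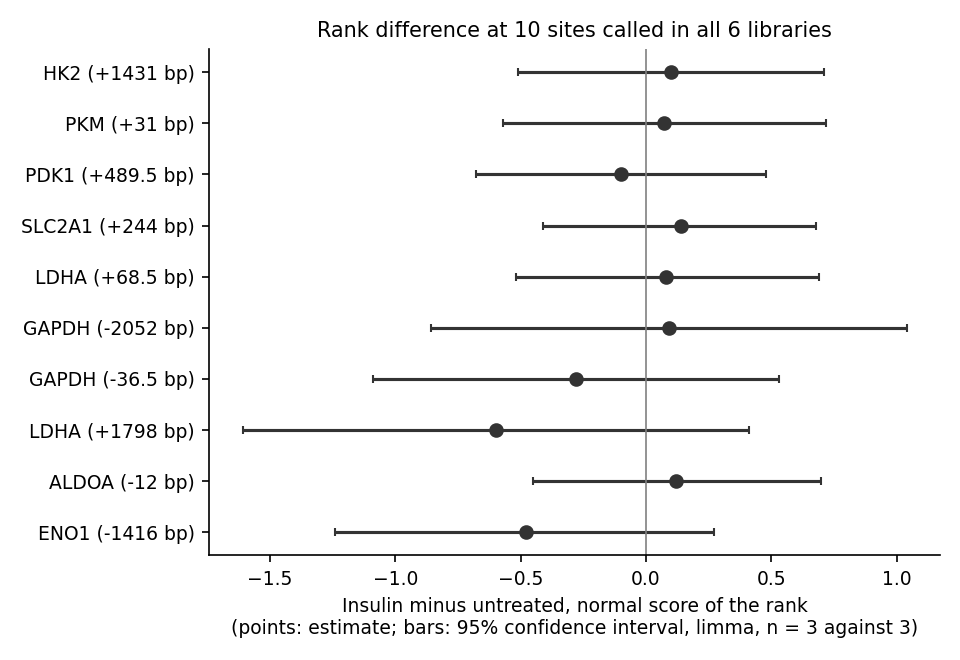
Insulin-minus-untreated difference in the normal score of the rank at the 10 sites called in all 6 libraries, as the limma estimate with its 95% confidence interval (n = 3 against 3). All 10 intervals include 0, and the widest, at the downstream LDHA site, runs from -1.61 to 0.41.

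The deposited fold gave a different picture from the rank at 4 of these sites, and so did the lists as wholes. At PKM the fold over background was 13.2, 10.5 and 9.25 in insulin replicates 1, 2 and 3 and 5.83, 6.0 and 7.74 in untreated replicates 1, 2 and 3. At HK2 it was 12.6, 11.4 and 10.1 after insulin and 8.93, 6.66 and 5.76 in untreated cells, and at SLC2A1 11.7, 9.31 and 6.38 after insulin and 5.57, 4.62 and 5.76 in untreated cells. At ALDOA it was 4.97, 4.35 and 3.32 after insulin and 3.19, 2.98 and 2.93 in untreated cells. Every insulin fold was thus above every untreated fold at 4 of the 10 sites, and the reverse held at 0. Over all 15887 shared regions the same was true of 34.2% and 0.00629%, and the median fold of a whole list was 5.95, 5.58 and 4.78 after insulin, against 4.65, 4.18 and 4.21 without it. A fold belongs to its own list, and the share at the glycolysis genes was near that of all shared regions.

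Sites confined to a single treatment were called in 1 or 2 of its 3 libraries. Of the 23 sites, 0 were called in 3 of 3 insulin and 0 of 3 untreated libraries, against 0.376% of all merged regions, and 0 showed the reverse, against 0.0352%. Without insulin replicate 3, the sites about 3.9 kb downstream of HK2 and 2.8 kb downstream of PFKL were called in every insulin and no untreated library. These were 2 sites, against 2382 of 65473 merged regions (3.64%). Without replicate 3 in both treatments the count was also 2, against 2721 of 62097 (4.38%). The total of member sites in these settings is not given here, and 2 sites are too few to set against these shares. Fragments numbered 26 and 27 at HK2 and 18 and 15 at PFKL in insulin replicates 1 and 2, and the percentiles were 38.4 and 11.5 at HK2 and 43.1 and 12.7 at PFKL.

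The number of peaks near the 10 starts was 21, 19 and 12 in insulin replicates 1, 2 and 3 and 17, 15 and 14 in untreated replicates 1, 2 and 3. The means were 17.3 ± 4.73 after insulin and 15.3 ± 1.53 in untreated cells (SD, n = 3 each). A two-sided exact permutation test gave p = 0.6, and with 3 against 3 it cannot go below 0.1. The spread lay almost entirely away from the starts. Within 2 kb of a start there were 12, 12 and 11 peaks after insulin and 11, 11 and 12 in untreated cells. Between 2 and 5 kb there were 9, 7 and 1 after insulin and 6, 4 and 2 in untreated cells, fewest in the replicate 3 libraries. Per 10000 peaks of the list the counts were 4.36, 4.22 and 4.36 after insulin and 3.80, 4.74 and 5.37 in untreated cells, a difference of -0.324, of the opposite sign (two-sided exact permutation p = 0.7, n = 3 each).

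**Figure D5:**
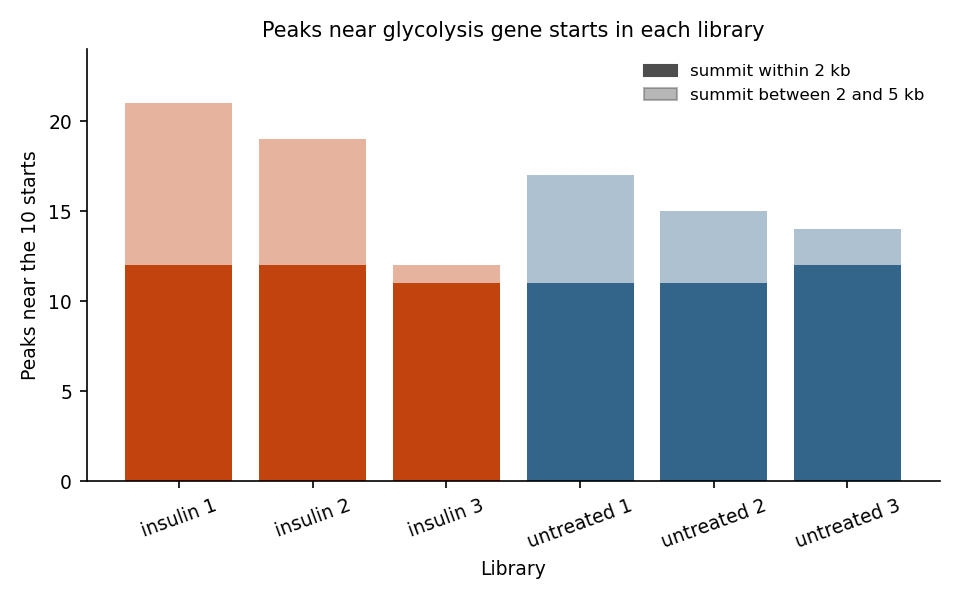
Number of peaks near the 10 starts in each library, split into summits within 2 kb (full colour) and between 2 and 5 kb (pale). The full-colour bars reach 11 or 12 in every library, and the pale parts range from 1 to 9.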

How the data were processed

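The data are 6 lists of FoxK1 peaks, 1 per immunoprecipitated library. The build was hg19 and the tools included MACS2, Bowtie2, fastp and SAMtools, per the submitters' processing notes. Versions, the use of inputs and the calling threshold were not given in the sources used. The authors called peaks on each library by itself, per the peak names in the deposited lists. The deposited fold is a linear ratio of the summit over the local background, both deposited −log10 values, of p and of q, move with depth, and the deposited score is within 1 of 10 times the −log10 p.

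The 10 genes, their starts and the motif list were chosen with earlier results of these data known. A summit is the peak's start plus its offset. All 10 genes are named. The strongest site of a gene is the one called in most libraries and then the one with the highest mean percentile. Fragments were solved from fold = (fragments + 1) / (background + 1) and a Poisson upper tail, with a tolerance of 0.0005 for the −log10 p, widened in proportion once that exceeds 10. Ranks over regions called in every library became normal scores, tested with limma 3.58.1 in R 4.3.3. The rank test was tested on simulated data. The simulated noise was independent between libraries, and the outcome is not given here. Same-numbered libraries deviated together on these scores (correlations of 0.110, 0.269 and 0.284 in replicates 1, 2 and 3, all over 0.1). Libraries of different numbers gave -0.296 to 0.090, so replicate 1 was close to the highest of these. The replicate number was taken to pair the libraries and tried as a block. The labels give no origin for this pairing. Other alternatives were each library left out, no replicate 3, windows of 2 and 10 kb, peaks at a −log10 q of 5 or more, equal list lengths, summits within 100 bp and ranks by fold. Other genes of the pathway were not analysed here, since no annotation on hg19 was at hand. Sequences are from RefSeq on GRCh38.p14, matched by symbol for 10 of 10 genes. The other software was numpy 2.4.6, scipy 1.17.1, pandas 2.3.3 and matplotlib 3.10.9 under Python 3.11.15.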

Additional observations from a re-analysis of the deposited data

How the results depend on the processing

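The count of genes with a peak in all libraries, 8, lay between 6 and 9 in 11 alternatives, and the count of genes with the strongest summit within 500 bp of the start, 5, between 5 and 7 in 10. In 12 alternatives limma called 0 member sites and 0 regions at an adjusted p of 0.05, with 451 to 1224 regions at an unadjusted p under 0.05. With the replicate block it called 0 member sites (lowest adjusted p = 0.776), the difference in member peaks was 2.00 (exact sign-flip test, two-sided, p = 0.5, and 0.25 is the lowest that 3 pairs allow), and no call changed. The difference in member peaks lay between 0.167 and 4.67 when single libraries were left out, was -2.00 with lists of equal length and -0.324 per 10000 peaks. Sites called in every insulin and no untreated library numbered 0 to 2 with each library left out (2 without insulin replicate 3). They numbered 2 without replicate 3 in both treatments. Fewer libraries make this rule easier to meet. The GAPDH start and the downstream LDHA site were not followed through the alternatives. At ENO1 the strongest site by the rule was the weak upstream one. The ENO1 start ranked higher but was called in 5 libraries, so it was not followed either. None of the rank differences at the strongest site of each gene was called at an adjusted p of 0.05. With each library left out they ranged from -0.09 to 0.22 at HK2, -0.04 to 0.24 at ALDOA, -0.30 to 0.36 at GAPDH, -0.16 to 0.26 at PKM, -0.07 to 0.23 at LDHA, -0.24 to 0.08 at PDK1, 0.04 to 0.24 at SLC2A1 and -0.81 to -0.15 at ENO1. Without replicate 3 in both treatments they were -0.19 at HK2, 0.07 at PDK1, 0.61 at GAPDH and 0.32 at SLC2A1. The cause of the changes of sign was not tested. SLC2A1 and ENO1 kept their sign in the 12 and 9 alternatives that gave a value. Stricter lists and summit regions gave no value at some sites, ENO1 among them, that were then not called in every library.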

Other observations

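Beyond the 5 kb window, 4 of the genes had further FoxK1 sites within 10 kb. A peak 8008 to 8046 bp downstream of the GAPDH start was called in all 6 libraries, at percentiles of 94.2, 88.1 and 80.3 in insulin replicates 1, 2 and 3 and 90.0, 86.7 and 79.6 in untreated replicates 1, 2 and 3. It ranked above both GAPDH sites described so far in every library. A peak 7852 to 7883 bp downstream of the HK2 start stood at percentiles of 73.6 and 83.5 in insulin replicates 1 and 2 and 81.9 and 45.9 in untreated replicates 1 and 2. A peak between -9889 and -9878 bp from the LDHA start stood at 86.2 and 77.4 in insulin replicates 1 and 2 and 82.8 and 80.1 in untreated replicates 1 and 2. Neither was called in a replicate 3 library. A weak peak 7325 to 7331 bp downstream of ENO1 was called in insulin replicates 1 and 2 alone. Which genes lie nearest to these peaks was not examined, and these values were picked out after they were seen.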
